A study of Mus musculus with 52 samples.

Results

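The immediate early response genes were followed here as 10 genes, namely Jun, Junb, Fos, Egr1, Myc, Atf3, Ier2, Ier3, Dusp1 and Klf6. They were chosen by name, as all probe sets whose only gene symbol in the array annotation was in that list. The list made up 10 of 12393 genes with such a probe set and 13 of 22626 probe sets, of which 12 passed the filter on low values. Jun had 2 probe sets and Klf6 had 3. Gene expression was measured on Affymetrix arrays in the liver of male B6C3F1 mice, 9 weeks old, after a single intraperitoneal dose. Of the genotoxic alkylating agents, ethylnitrosourea (ENU) was given at 150 mg/kg, dimethylnitrosamine (DMN) at 5 mg/kg and dipropylnitrosamine (DPN) at 250 mg/kg, each with its own saline control. The genotoxic aromatic mutagens were o-aminoazotoluene (AAT, 300 mg/kg), dimethylbenzanthracene (DMBA, 20 mg/kg) and dibenzopyrene (DBP, 6 mg/kg), which shared 1 olive oil control. Of the non-genotoxic chemicals, ethanol (EtOH) was given at 1000 mg/kg and phenobarbital (PB) at 30 mg/kg, with 1 saline control for both. Livers were taken at 4 h, 20 h, 14 days and 28 days, with 13 arrays per time and RNA pooled from 5 mice on each array. The spread between mice therefore cannot be had, and precision is bounded by how many arrays there are. A p-value below from a class fit measures the spread between chemicals within the classes, together with that between their controls. In the fit of the vehicle controls alone, a p-value measures the spread between control arrays. In whole liver RNA, fewer cells of a type and less RNA per cell cannot be told apart.

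Immediate early genes are transcribed within minutes of a stimulus, without new protein synthesis, from signals carried by MAP kinases and by kinases that act on CREB. Jun, Junb and Fos are subunits of the AP-1 transcription factor, Egr1 and Klf6 are zinc finger factors, and Myc is a factor of growth control. Atf3 belongs to the ATF and CREB family and is known as a stress-induced gene, Dusp1 is a phosphatase that switches off MAP kinases, and Ier2 and Ier3 are early response genes. In liver these genes are known from the first hours after partial hepatectomy and acute injury.

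The stretches before the start sites of 5 genes are shown because these genes had the highest DPN ratios at 4 h, given further on, and the regulatory letters before them can be compared. RefSeq promoters on GRCm38.p6 were matched for 7 of the 10 genes (Jun, Junb, Fos, Klf6, Atf3, Dusp1 and Ier3), and the 250 bases upstream of the start site were read from each. Capitals mark TGACNTCA and TGACG on either strand, motifs of AP-1, ATF and CREB proteins that were chosen after the sequences had been read. The windows are Jun chr4:95052223-95052472 (minus strand), Klf6 chr13:5861239-5861488 (plus strand), Dusp1 chr17:26508473-26508722 (minus strand), Atf3 chr1:191183334-191183583 (minus strand) and Fos chr12:85473640-85473889 (plus strand).
Jun: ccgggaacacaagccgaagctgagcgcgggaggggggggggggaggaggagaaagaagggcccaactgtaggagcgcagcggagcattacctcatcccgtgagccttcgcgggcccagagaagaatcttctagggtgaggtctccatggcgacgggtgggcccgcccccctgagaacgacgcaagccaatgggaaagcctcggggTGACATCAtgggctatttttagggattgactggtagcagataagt
Klf6: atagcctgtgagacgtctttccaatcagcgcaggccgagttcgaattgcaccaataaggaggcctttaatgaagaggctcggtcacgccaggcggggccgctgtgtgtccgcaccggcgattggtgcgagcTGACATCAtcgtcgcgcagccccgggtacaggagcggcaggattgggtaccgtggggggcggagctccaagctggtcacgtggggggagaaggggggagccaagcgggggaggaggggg
Dusp1: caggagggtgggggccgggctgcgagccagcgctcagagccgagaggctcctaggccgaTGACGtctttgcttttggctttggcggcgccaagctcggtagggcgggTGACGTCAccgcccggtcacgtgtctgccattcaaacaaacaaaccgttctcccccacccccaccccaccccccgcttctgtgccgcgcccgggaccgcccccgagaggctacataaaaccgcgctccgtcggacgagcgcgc
Atf3: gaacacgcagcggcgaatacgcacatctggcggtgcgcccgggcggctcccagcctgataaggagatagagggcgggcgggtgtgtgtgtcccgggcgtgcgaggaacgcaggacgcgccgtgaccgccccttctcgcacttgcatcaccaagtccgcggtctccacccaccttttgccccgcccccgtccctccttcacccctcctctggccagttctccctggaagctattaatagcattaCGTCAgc
Fos: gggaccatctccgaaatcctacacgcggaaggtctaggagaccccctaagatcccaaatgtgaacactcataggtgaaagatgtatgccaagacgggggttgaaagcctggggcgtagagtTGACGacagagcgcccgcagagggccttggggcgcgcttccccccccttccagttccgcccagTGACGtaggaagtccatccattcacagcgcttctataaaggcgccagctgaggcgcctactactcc

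TGACNTCA was found in 3 of the 7 promoters and in 7.49% of 32851 promoters of the same length. Jun held it as TGACATCA at 45 to 38 bases before the start, and Klf6 held the same letters at 119 to 112 bases before it. Dusp1 held TGACGTCA, the palindromic form, at 143 to 136 bases before the start. The shorter TGACG, which lies within TGACGTCA, was found in 4 of the 7 promoters (Atf3, Junb, Fos and Dusp1) and in 17.8% of all. Atf3 held it close to the start, at 7 to 3 bases before it, and Fos held it at 129 to 125 and at 66 to 62 bases before it. CACGTG, the E-box that Myc binds, was in Klf6 and Dusp1 and in 6.02% of all promoters, and TATAAA was in Fos and in 12.4% of all. TGANTCA (6.75% of all) and the CArG box (1.47% of all) were in 0 of the 7 windows. Bases further upstream, and the promoters of Egr1, Myc and Ier2, were not read. A match of letters is a description and not a site of binding.

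Signals were scaled to the array median and given as log2, with a floor of 5.02 for dim values, and a ratio is the log2 signal of the treated array minus that of its own control. Array medians ran from 17.9 (PB at 28 days) to 205 (the saline control of DMN at 14 days) before scaling. Ratios of single chemicals that rest on these arrays are named where they first come up, and the class fits and counts of those times include them. On the array of EtOH at 20 h the 3′ to 5′ log2 ratio of the Gapdh control probe sets was 3.13, against -0.43 to 0.18 on the other arrays of that time. Cyp2b10, the P450 gene that phenobarbital is known to induce, stood at 11.5 on the array labelled saline control of EtOH and PB at 20 h, against 6.19 to 7.26 on the other controls and 8.25 on the array labelled PB. The labels of the saline control and PB arrays at 20 h may therefore be exchanged. The ratios of EtOH and PB at 20 h rest on that control, and it is also 1 of the 4 arrays behind the saline differences of that time. The tissue was liver by its markers, since all 6 hepatocyte markers were above the floor on all 52 arrays, with a summed signal of 46827 to 66653 in the controls at 4 h and 50154 to 72067 in the genotoxic arrays.

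For Jun, Fos, Atf3 and Dusp1 the genotoxic class had its highest fitted change at 4 h, and DPN had the highest signal of the 13 arrays of that time. Jun, the AP-1 subunit, was measured by a brighter and a dimmer probe set. On the brighter probe set the log2 signal at 4 h was 6.97, 7.33, 7.42 and 7.70 in the saline controls and 7.14 in the olive oil control. In the treated arrays it was 7.80 for ENU, 7.63 for DMN, 9.80 for DPN, 8.71 for AAT, 7.86 for DMBA, 7.96 for DBP, 7.31 for EtOH and 7.22 for PB. Of the 6 genotoxic arrays 5 were above every control, DMN lay just under the highest control, and EtOH and PB were among the controls. On the dimmer probe set the controls were 5.56, 5.67, 6.25 and 6.38 in saline and 6.55 in olive oil. The treated arrays were 7.24 for ENU, 7.20 for DMN, 9.23 for DPN, 7.77 for AAT, 7.77 for DMBA, 7.03 for DBP, 6.89 for EtOH and 6.90 for PB. All 8 treated arrays were above the 5 controls here, so the probe sets of Jun differed on EtOH and PB. The dimmer probe set of Jun was the only 1 of the 12 whose genotoxic arrays and controls did not overlap at 4 h, and 0.294% of all probe sets had all 6 genotoxic arrays above the controls.

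Fos, the partner of Jun in AP-1, had low signal. Its saline controls at 4 h were 5.06, 5.25, 5.61 and 5.87 and the olive oil control was 5.36. The treated arrays were 5.89 for ENU, 5.47 for DMN, 6.33 for DPN, 6.15 for AAT, 5.95 for DMBA, 6.02 for DBP, 5.44 for EtOH and 5.75 for PB. Of the genotoxic arrays, 5 of 6 lay above all controls, while EtOH, PB and DMN lay among them. Junb, an AP-1 subunit that can replace Jun in the dimer, showed no such order. Its saline controls were 6.23, 7.58, 7.68 and 8.28 with 8.28 in olive oil, the genotoxic arrays ran from 7.37 to 8.52, and EtOH and PB were at 5.23 and 6.01.

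**Figure D1:**
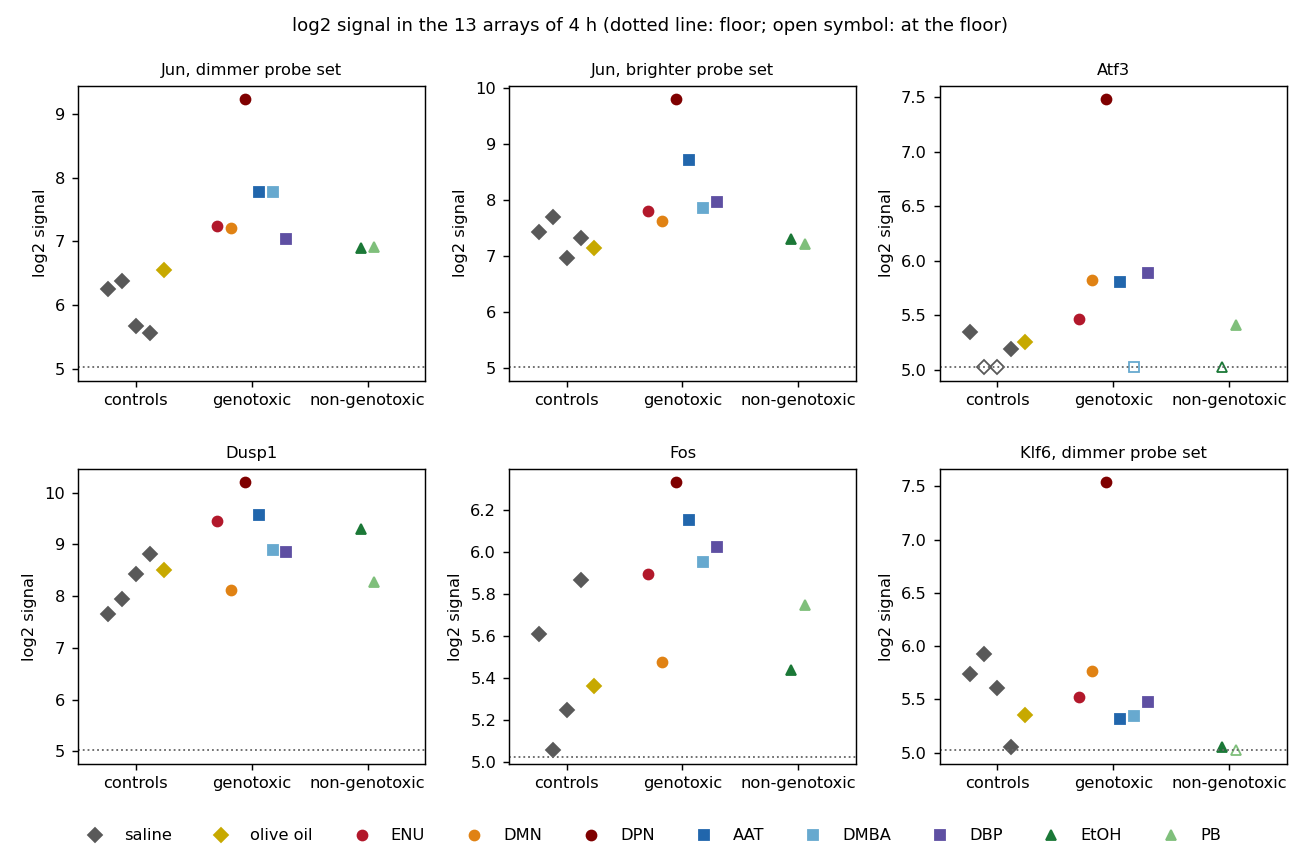
Log2 signal (y axis) of Jun, Atf3, Dusp1, Fos and the dimmer probe set of Klf6 on the 13 arrays of 4 h, 1 point per array of pooled RNA, with controls, genotoxic and non-genotoxic chemicals side by side; the dotted line is the floor and open symbols lie on it. DPN is the highest point of every panel, at 9.23 and 9.80 for Jun and 7.48 for Atf3.

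Atf3 was near the floor without a genotoxic chemical. At 4 h, 2 of the 5 controls were at the floor and the others were 5.19, 5.25 and 5.34. The treated arrays were 5.47 for ENU, 5.82 for DMN, 7.48 for DPN, 5.81 for AAT and 5.89 for DBP, while DMBA and EtOH were at the floor and PB was at 5.41. Over the 39 arrays of the later times, 28 were at the floor and the highest value was 5.27. The control of DPN was at the floor at 4 h, so the DPN array was at least 5.5-fold higher than its control on this scale. The control of ENU was at the floor as well, so the ratios of Atf3 after ENU and DPN are lower bounds, and its saline differences are set in part by the floor.

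Dusp1 was bright in all arrays. Its saline controls at 4 h were 7.66, 7.95, 8.43 and 8.81 and the olive oil control was 8.50. The treated arrays were 9.46 for ENU, 8.11 for DMN, 10.20 for DPN, 9.56 for AAT, 8.89 for DMBA, 8.84 for DBP, 9.30 for EtOH and 8.27 for PB. The genotoxic arrays other than DMN were above all controls, and so was EtOH. Klf6 differed from its control mainly after DPN. The dimmer probe set was 5.06 to 5.93 in the 5 controls, 7.54 for DPN, 5.32 to 5.77 for the other genotoxic arrays, 5.06 for EtOH and at the floor for PB. The brighter probe set was 5.37 to 5.95 in the controls, 6.44 for DPN and 5.08 to 6.06 for the other genotoxic arrays. The third probe set of Klf6, which did not pass the filter, was above the floor only on the DPN array of 4 h, at 6.46, out of 52 arrays.

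The other 4 genes had no common order of genotoxic arrays and controls at 4 h. Egr1 was 6.37 to 8.53 in the controls, 6.38 to 7.61 in the genotoxic arrays and 6.24 and 6.30 in EtOH and PB. Myc was 5.71 to 7.28 in the controls, 6.10 to 7.25 in the genotoxic arrays, 5.53 for EtOH and 6.86 for PB. Ier3 was 5.06 to 6.04 in the controls, 5.25 to 6.38 in the genotoxic arrays and 5.40 and 5.55 in EtOH and PB. Ier2 split the genotoxic chemicals. Its controls were 7.93, 8.11, 8.33 and 8.39 in saline and 8.14 in olive oil, the alkylating agents ENU, DMN and DPN were at 8.91, 8.59 and 8.74, and the aromatic mutagens AAT, DMBA and DBP were at 7.65, 7.81 and 7.76. All 3 alkylating agents were above and all 3 aromatic mutagens were below the 5 controls, while PB at 7.65 was below them too and EtOH at 8.10 lay among them.

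For a single chemical there was 1 array, so a ratio was set beside the 6 differences between the 4 saline controls of that time, without a test. For DPN at 4 h, 6 of the 10 genes had a ratio above every saline difference, against 12.6% of all probe sets, and 0 were below. These were Jun at 2.10 (4.28-fold, largest saline difference 0.72), Atf3 at 2.46 (a bound, against 0.32, which the floor sets in part), Dusp1 at 2.24 (4.74-fold, 1.15), Fos at 1.28 (2.42-fold, 0.81), Klf6 at 1.07 (2.10-fold, 0.58) and Ier2 at 0.81 (1.75-fold, 0.45). The dimmer probe sets of Jun and Klf6 gave DPN ratios of 2.85 and 1.61. Junb at -0.56, Egr1 at 0.18, Myc at 0.44 and Ier3 at -0.36 lay within the saline differences. The count for DPN ran from 4 to 6 under the alternatives tried.

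**Figure D2:**
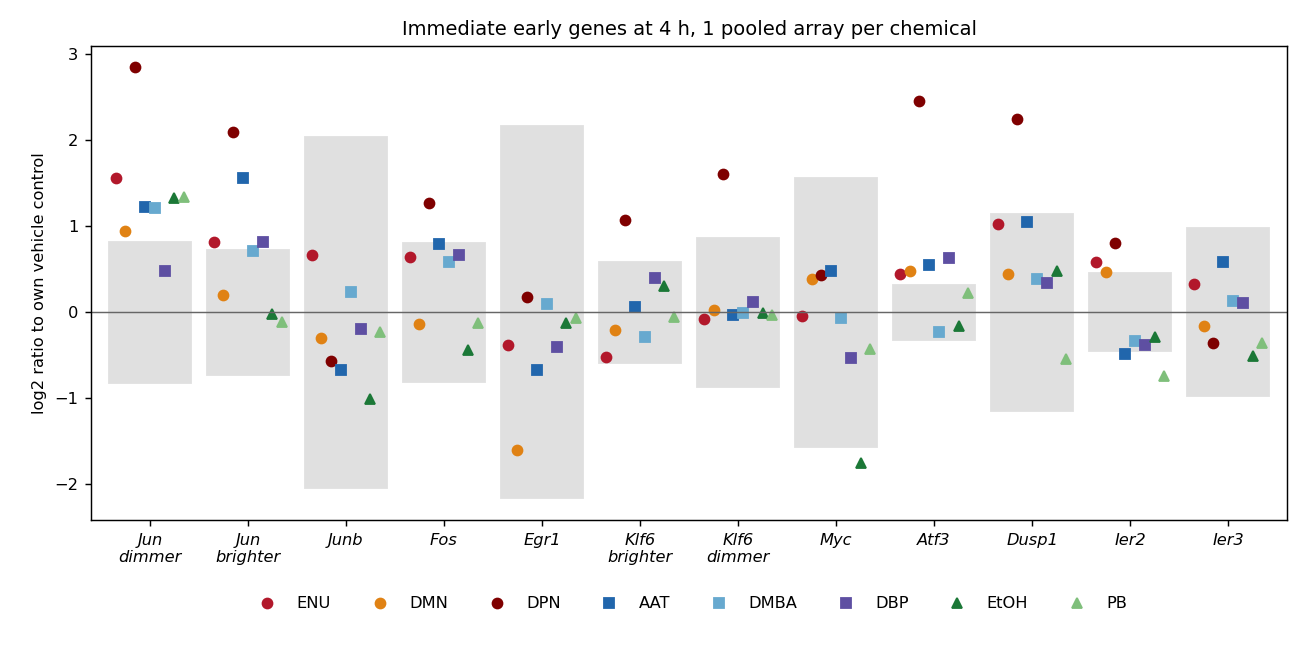
Log2 ratio to the own vehicle control at 4 h (y axis) for the 12 probe sets (x axis), 1 point per chemical, with a grey box that reaches the largest difference between 2 saline controls in either direction. DPN points stand above the boxes of Jun, Fos, Klf6, Atf3, Dusp1 and Ier2, while Egr1 and Junb have boxes of 2.16 and 2.04 that hold every point.

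The other chemicals gave smaller counts at 4 h. ENU was above the saline differences for 3 genes (Jun 0.82, Atf3 0.44, a bound, and Ier2 0.58), against 14.2% of all probe sets. DMN was above them for 2 genes, Atf3 at 0.48 and Ier2 at 0.47, against 11.5%. AAT was above them for 2 genes, Jun at 1.56 and Atf3 at 0.55, against 8.55%, and below them for Ier2 at -0.49, against 12.1%. DBP was above them for Jun at 0.82 and Atf3 at 0.63, against 7.88%. DMBA was above them for 0 genes, against 7.02%, and its Jun ratio of 0.71 lay just within the largest saline difference of 0.72. EtOH was above them for 0 genes, against 7.94%, and below them for Myc at -1.75, against 4.89%. This Myc ratio was taken against the highest Myc control of that time, at 7.28. PB was above them for 0 genes, against 7.08%, and below them for Ier2 at -0.74, against 3.97%. The 3 chemicals given in olive oil had that control in common, and so did EtOH and PB theirs, so the values within a set are not independent.

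DMN and DPN are both N-nitrosodialkylamines and differ in the alkyl group, methyl in DMN and propyl in DPN. Their doses differed, 5 and 250 mg/kg, so their values are only set side by side. At 4 h the ratio of Jun was 0.21 after DMN and 2.10 after DPN, that of Dusp1 was 0.45 and 2.24, that of Fos was -0.14 and 1.28, and that of Atf3 was 0.48 and 2.46.

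**Figure D3:**
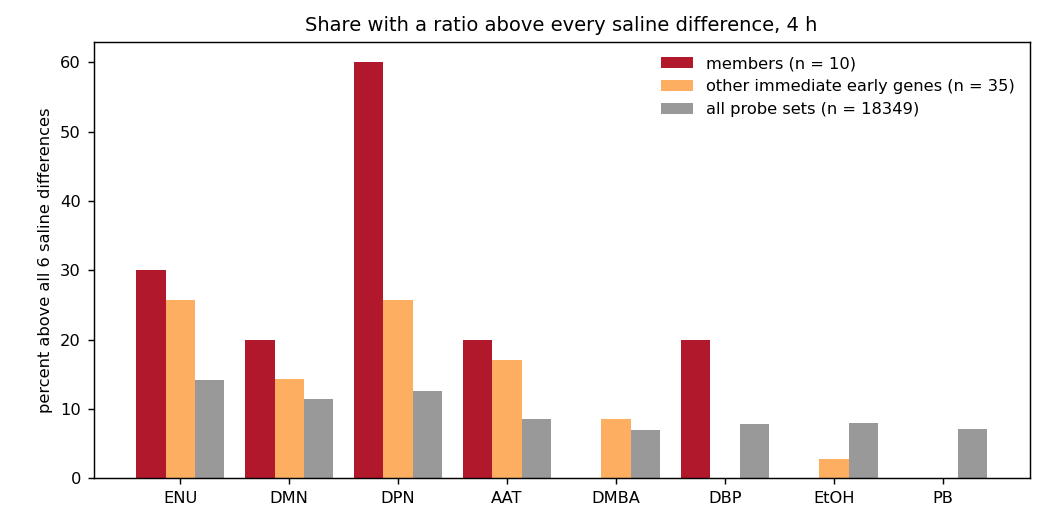
Percent of genes or probe sets (y axis, from 0) with a ratio above all 6 saline differences at 4 h for each chemical (x axis), for the 10 immediate early genes, 35 other immediate early genes and all 18349 probe sets. The bar of the 10 genes reaches 60% for DPN, beside 12.6% of all probe sets, and is absent for DMBA, EtOH and PB.

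Over the 8 chemicals at 4 h, 15 of 80 ratios (18.8%) were above the saline differences, against 9.6% of all probe sets, and 3 (3.75%) were below, against 7.38%. On the values as deposited it was 5 of 80 (6.25%), against 4.53% of all probe sets, and 4 of the 5 were from DPN. On the scaled values DPN gave 6 of the 15, so 9 of 70 (12.9%) were above without it, against 9.16%. Atf3, whose saline differences are limited by the floor, gave 5 of the 15, so 10 of 72 (13.9%) were above without it, against 9.6%. The Atf3 ratio after DPN was among both the 6 and the 5, and DPN and Atf3 were not left out together. Whether the share stays above that of all probe sets without both was not tested. At 20 h 6 of 80 (7.5%) were above, against 12.4%, and 4 (5%) were below, against 8.87%. At 14 days 3 (3.75%) were above, against 9.89%, and 6 (7.5%) below, against 6.7%. At 28 days 7 (8.75%) were above, against 8.97%, and 8 (10%) below, against 6.38%. Without the control of EtOH and PB in the saline differences the counts above were 12 of 80 (15%), against 19.2%, at 20 h, 12 of 80 (15%), against 16.7%, at 14 days and 17 of 80 (21.2%), against 15.9%, at 28 days. EtOH and PB gave 0 of the 6 at 20 h, so the other chemicals gave 6 of 60 (10%), against 10.8%, or 9 of 60 (15%), against 17.3%, with that control left out of the differences too.

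Whether the genotoxic class as a whole differed from its controls was tested with limma. At 4 h 0 of 12 probe sets were called (adjusted p under 0.05), against 0% of all probe sets, and 5 of the 12 had an unadjusted p under 0.05, with 1785 of 18349 over the array. The fitted log2 change was 1.04 for the brighter probe set of Jun (SE 0.29, limma adjusted p = 0.440, 0.0825 to 1 over the alternatives) and 1.52 for the dimmer one (SE 0.32, limma adjusted p = 0.415, 0.0747 to 1). It was 1.02 for Dusp1 (SE 0.34, limma adjusted p = 0.463), 0.86 for Atf3 (SE 0.36, limma adjusted p = 0.508) and 0.62 for Fos (SE 0.19, limma adjusted p = 0.440). These are the 4 genes with an unadjusted p under 0.05. Values near 0 were fitted for Ier3 (0.05, SE 0.15), Klf6 (0.10, SE 0.25), Junb (-0.11, SE 0.26), Myc (0.16, SE 0.31) and Ier2 (0.28, SE 0.20), and Egr1 was fitted at -0.51 (SE 0.27). Of the 10 genes 8 were fitted higher and 2 lower, with a median of 0.22 against 0.015 over all probe sets. Without DPN the fitted changes were 0.74 for Jun, 1.14 for its dimmer probe set, 0.67 for Dusp1, 0.44 for Fos and 0.40 for Atf3, so that of Atf3 was the most reduced.

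The change at 4 h was also set against the mean of the later times in 1 limma fit of all 52 arrays. Of the 12 probe sets 0 were called, against 0.00545% of all. At an unadjusted p under 0.05 there were 5 of the 12, and the count over the array at that p is not given. The difference was 1.03 for Jun (SE 0.28, limma adjusted p = 0.367), 0.88 for Atf3 (SE 0.22, limma adjusted p = 0.345), 0.88 for Dusp1 (SE 0.37) and 0.71 for Fos (SE 0.30). All 4 were fitted higher at 4 h than later in every alternative tried, and none passed the threshold in any of them.

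**Figure D4:**
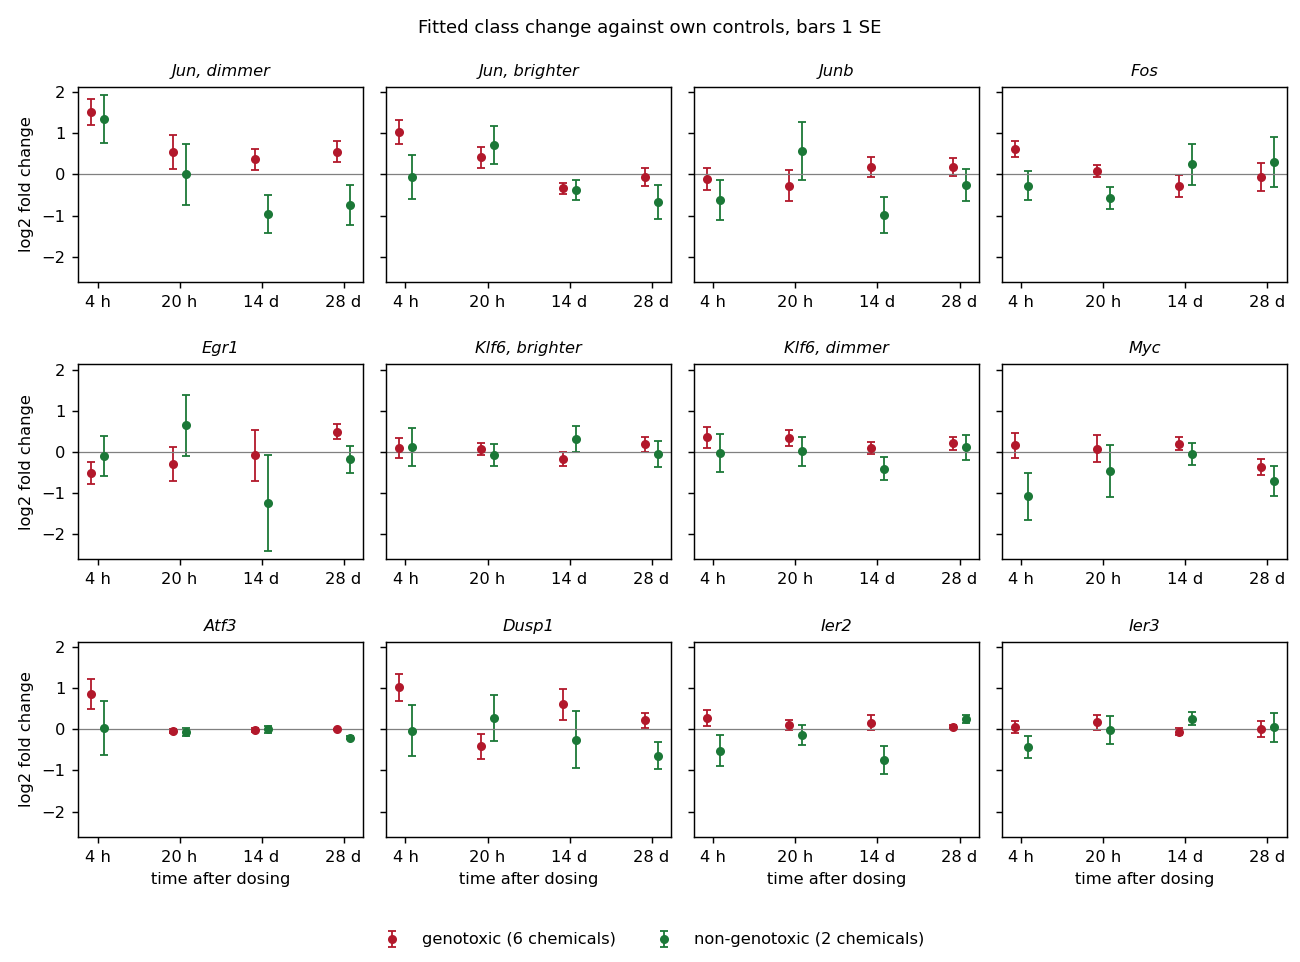
Fitted log2 change of the genotoxic class (6 chemicals, red) and the non-genotoxic class (2 chemicals, green) against their own controls (y axis) at each time (x axis), with bars of 1 SE, for the 12 probe sets. Jun, Fos, Atf3 and Dusp1 have their highest genotoxic value at 4 h, and Atf3 is between -0.05 and 0 at the later times. The non-genotoxic values of 20 h rest on the control whose label is in doubt.

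The comparison for which the study was made sets the genotoxic against the non-genotoxic class. At 4 h limma called 0 of 12 probe sets, against 0.104% of all, and 0 had an unadjusted p under 0.05. The genotoxic change minus the non-genotoxic change was 1.10 for Jun (SE 0.60), 0.18 for its dimmer probe set (SE 0.66), 0.90 for Fos (SE 0.40), 1.05 for Dusp1 (SE 0.70), 0.83 for Atf3 (SE 0.76), 0.79 for Ier2 (SE 0.42) and 1.25 for Myc (SE 0.64). The Myc difference came with a non-genotoxic change of -1.08 (SE 0.56). That change was taken against the highest Myc control of 4 h, at 7.28, where the median of the saline controls was 6.14. The non-genotoxic class against its control had 0 of 12 called at 4 h by limma, against 0.136% of all, and 0 with an unadjusted p under 0.05. The dimmer probe set of Jun was fitted at 1.34 (SE 0.58) and the brighter at -0.06 (SE 0.53) in that class.

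Between the alkylating and the aromatic chemicals at 4 h limma called 0 of 12 probe sets, against 0.125% of all, and 1 had an unadjusted p under 0.05. This was Ier2, with a difference of 1.02 (SE 0.23, limma adjusted p = 0.373, 0.0166 to 0.989 over the alternatives). It was called in 1 of 19 alternatives, the fit without the control set as a block. Vehicle and subclass go together in this comparison and cannot be told apart. At 20 h the ratios of Ier2 were -0.24, 0.07 and 0.37 for ENU, DMN and DPN and -0.01, 0.23 and 0.39 for AAT, DMBA and DBP, so the split of 4 h was not seen then.

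At 20 h the DPN ratio of Jun was 1.05 (1.89 on the dimmer probe set), above the saline differences of 0.96 and 0.62, with 3 of the 10 genes above for DPN, against 14.1% of all probe sets. The levels behind it were 7.87 after DPN and 6.81 in its control, with 6.28 to 7.24 in all 5 controls. AAT, at 0.94, lay just within the saline differences on the brighter probe set and at 1.11 above them on the dimmer one. Myc at 20 h had ratios of 0.40 for ENU, 0.65 for DPN and 0.76 for AAT, above the largest saline difference of 0.38, and of -0.68 for DMN and -0.99 for EtOH, below it. The EtOH value rests on the control whose label is in doubt. Myc was at the floor on 3 of the 13 arrays of 20 h, so its low ratios there may be bounds. Junb after AAT was at -1.61, below a largest saline difference of 1.49. In the class fit at 20 h limma called 0 of 12 probe sets, against 0% of all, and 0 had an unadjusted p under 0.05, with 847 over the array.

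At 14 days Egr1 was above its control after the polycyclic hydrocarbons. Its log2 signal was 9.19 for DBP and 8.20 for DMBA, with 6.66 in their olive oil control and 6.29 for AAT, which gave ratios of 2.53 and 1.53 against a largest saline difference of 1.29. The 4 saline controls were at 7.11, 7.15, 7.41 and 8.39, so DBP was above all controls and DMBA was not. The olive oil control behind both ratios was below all 4 of them. Egr1 was the only 1 of the 10 genes above the saline differences for DMBA and for DBP, against 9.5% and 12.9% of all probe sets. DMN at -1.66 and PB at -1.42 were below the saline differences, and the control behind the DMN value was the array with the highest median before scaling. Jun lay below them after ENU (-0.64), DMN (-0.34), DPN (-0.49) and EtOH (-0.51), against a largest difference of 0.33. The DMN value of Jun rests on the same DMN control. The class fit gave -0.33 for Jun with an unadjusted p under 0.05 in limma, while its dimmer probe set was fitted at 0.37. At 14 days limma called 0 of 12 probe sets in the genotoxic class, against 0% of all, and 1 had an unadjusted p under 0.05, with 2164 probe sets at an unadjusted p under 0.05 over the array.

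At 28 days Egr1 was above its own control in all 6 genotoxic chemicals, with ratios of 0.30 for ENU, 0.31 for DMN, 0.45 for DPN, 0.42 for AAT, 0.80 for DMBA and 1.15 for DBP. All of these were within the largest saline difference of 1.77, and EtOH and PB were at 0.07 and -0.43. The class fit gave 0.50 (limma unadjusted p = 0.026, adjusted p = 0.802), and limma called 0 of 12 probe sets, against 0% of all, and 1 had an unadjusted p under 0.05, with 1116 over the array. Dusp1 was above the saline differences for AAT (0.82) and DMBA (0.70) and below them for ENU (-0.41), EtOH (-0.46) and PB (-0.82), against a largest difference of 0.40. The PB array of 28 days had the lowest median before scaling, for these values of Egr1 and Dusp1 and for those of Atf3 and Ier2 that follow. Fos after DMBA was at 1.18, from 6.21 against a control at the floor.

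The non-genotoxic class at 28 days had 0 of 12 probe sets called by limma, against 1.02% of all, and 2 with an unadjusted p under 0.05. Atf3 was fitted at -0.20 (SE 0.04, limma adjusted p = 0.058), and it was called in 4 of 18 alternatives. All arrays of 28 days except the control of EtOH and PB (5.27) and PB (5.10) were at the floor for Atf3, so this value rests on 1 control array just above the floor. Ier2 was fitted at 0.26 (SE 0.10, limma unadjusted p = 0.031), with levels of 8.43 and 8.44 against 8.17. The genotoxic minus non-genotoxic comparison at 28 days also had 0 of 12 called by limma, against 0.518% of all, and 2 with an unadjusted p under 0.05, Atf3 at 0.20 (SE 0.04) and the dimmer probe set of Jun at 1.31 (SE 0.56). For neither comparison is the count over the array at an unadjusted p given.

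The remaining comparisons of the later times also had 0 of 12 probe sets called by limma. Of all probe sets, 0.153% at 20 h and 0.12% at 14 days were called in the non-genotoxic class. In the genotoxic minus non-genotoxic comparison 0.114% and 0.0599% were called at these times. Between alkylating and aromatic chemicals 0.0981% were called at 20 h, 0.0436% at 14 days and 0.0218% at 28 days. At an unadjusted p under 0.05 there were 0 of the 12 in the non-genotoxic class at 20 h and 14 days. In the genotoxic minus non-genotoxic comparison there were 0 at 20 h and 3 at 14 days. The 3 were Ier2 at 0.91 (SE 0.39), Junb at 1.16 (SE 0.50) and the dimmer probe set of Jun at 1.33 (SE 0.52). Between alkylating and aromatic chemicals there were 1 at 20 h (Fos, 0.69, SE 0.21), 1 at 14 days (the dimmer probe set of Klf6, 0.74, SE 0.20) and 0 at 28 days. The count over the array at an unadjusted p is not given for these comparisons, so no excess can be read from them. The comparisons with the non-genotoxic class at 20 h rest on the EtOH array with the high Gapdh ratio and on the control of doubtful label. These comparisons can therefore show neither a change in that class nor its absence.

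The vehicle controls show how much these genes varied without a chemical, except for the EtOH and PB control of 20 h, whose label is in doubt. Egr1 was at 8.53, 8.49, 8.39 and 8.31 in the saline control of the DMN set over the 4 times, and at 6.03 to 7.50 in the other controls. Junb in the saline control of EtOH and PB was at 6.23, 5.70 (the array of doubtful label), 8.19 and 6.41. It was the lowest saline control at 4 h and the highest at 14 days. The negative DMN ratios of Egr1 (-1.60 at 4 h, -1.77 at 20 h and -1.66 at 14 days) were taken against that high control, while the DMN array itself was at 6.93, 6.72 and 6.73. At 28 days the DMN array was at 8.62 and the ratio was 0.31.

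**Figure D5:**
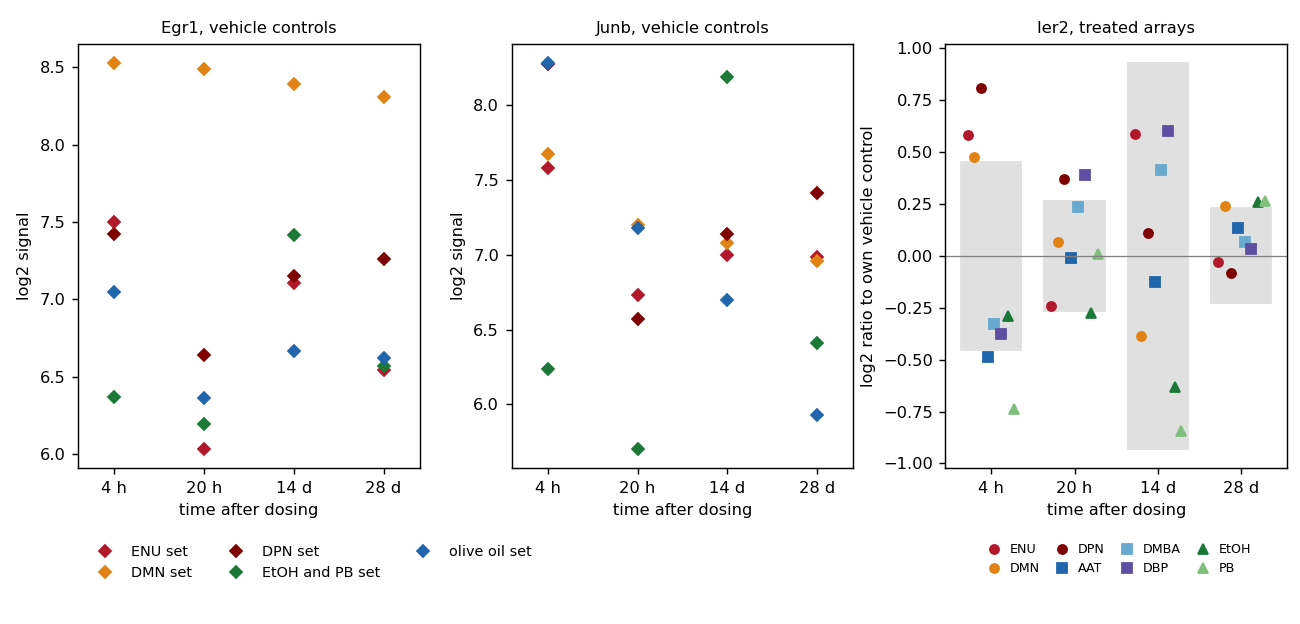
Log2 signal of Egr1 and of Junb in the 5 vehicle controls at each time (left and middle, 1 point per array), and the log2 ratio of Ier2 to the own control for the 8 chemicals (right, grey boxes reach the largest saline difference). The DMN set control of Egr1 stays above 8.31 or equal to it, the EtOH and PB control of Junb runs from 5.70 to 8.19, and the 3 alkylating agents stand above the Ier2 box at 4 h. The 5.70 is from the 20 h array whose label is in doubt.

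All 10 genes were fitted higher in the controls of 4 h than in those of the later times, with a median of 0.23 against 0.010 over all probe sets. The later controls include that of EtOH and PB at 20 h, whose label is in doubt. In that limma fit 0 of 12 probe sets were called, against 0.349% of all, and 4 had an unadjusted p under 0.05. These were the dimmer probe set of Klf6 (0.42, SE 0.11, limma adjusted p = 0.146), the dimmer probe set of Jun (0.69, SE 0.25), Myc (0.60, SE 0.23) and Junb (0.73, SE 0.32). The count over the array at an unadjusted p is not given for this fit. The brighter probe set of Jun was fitted at 0.27 (SE 0.15), Dusp1 at 0.35, Atf3 at 0.09 and Fos at 0.07.

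A wider list of 35 other immediate early genes had 0 called by limma in the genotoxic class at 4 h, against 0% of all probe sets, 11 with an unadjusted p under 0.05, all of them higher, with 1785 of 18349 over the array, and a median of 0.064. The largest fitted changes were those of Plk3, a stress kinase (1.01, SE 0.35), Sgk1, a kinase of salt and stress responses (0.99, SE 0.36), Btg2, an antiproliferative target of p53 (0.85, SE 0.32), and Socs3, a feedback inhibitor of cytokine signalling (-0.78, SE 0.46). Btg2 had ratios of 1.38 for ENU and 1.99 for DPN against a largest saline difference of 0.59. Plk3 after DPN was at 2.29 and Socs3 after DPN was at -2.29, with saline differences of 2.54 and 2.13. DPN and ENU were above the saline differences for 9 of the 35 genes each, against 12.6% and 14.2% of all probe sets. AAT was above them for 6 (8.55% of all), DMN for 5 (11.5%), DMBA for 3 (7.02%), EtOH for 1 (7.94%), DBP for 0 (7.88%) and PB for 0 (7.08%). Over the 8 chemicals 33 of 280 ratios of this list (11.8%) were above, against 9.6%, and 11 (3.93%) were below, against 7.38%. In the non-genotoxic class at 28 days limma called 1 of the 35, against 1.02% of all probe sets. This was Klf4, a zinc finger factor related to Klf6, which fell by 0.29 on the log2 scale (SE 0.04, limma adjusted p = 0.033). It was not called in 11 of 17 alternatives. Its level was 5.31 in the control of EtOH and PB and at the floor in both treated arrays, so this value too rests on 1 control array just above the floor. The PB array of that time had the lowest median before scaling.

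Of 16 genes for upstream kinases and factors 0 were called by limma in the genotoxic class at 4 h against 0% of all, and 1 had an unadjusted p under 0.05, with 1785 of 18349 over the array, while 5 were fitted higher and 11 lower. The largest fitted changes were those of Elk3 (-0.31, SE 0.10) and Elk1 (-0.28, SE 0.19), partners of serum response factor, Creb1 (0.19, SE 0.09) and the kinase Map2k4 (-0.18, SE 0.10). In the vehicle controls Stat3, the transcription factor of the interleukin-6 response, rose at 4 h against the later times (0.64, SE 0.13, limma adjusted p = 0.031), where 0.349% of all probe sets were called. Its log2 signal was 9.74 to 10.5 in the 5 controls of 4 h and 9.01 to 10.1 in the later ones, and it was not called in 9 of 16 alternatives. The later controls include the array of doubtful label here too.

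Over the 32 treated arrays, of 45 pairs of genes 3 had a Pearson r above 0.5, namely Junb with Egr1 (0.68), Jun with Atf3 (0.63) and Atf3 with Dusp1 (0.57), 16 were below 0, and the median was 0.14. The probe sets of Jun correlated at 0.56 and those of Klf6 at 0.46. Among 9606 other genes the ratios most like those of Jun were Ppp1r3c (0.74) and Timp4 (0.71), and those most like Atf3 were Ppp1r3c (0.78) and Cend1 (0.65). The nearest to Fos were Kpna1 (0.63) and Ddit3 (0.60), to Junb Tcn2 (0.73) and Ctsh (0.71), and to Egr1 G0s2 (0.68) and Hdhd2 (0.67). The nearest to Dusp1 were Spon2 (0.65) and Cdr2 (0.65), to Ier2 Slc25a22 (0.75) and Tgif1 (0.71), and to Ier3 Dppa5a (0.59) and Mast2 (0.57). Myc lay nearest to Ash2l (0.64) and Rcn2 (0.60), and Klf6 to Zfp93 (0.60) and Prom2 (0.59). Arrays of a set share their control, so these values are a description. The 32 arrays include EtOH and PB at 20 h, and DPN at 4 h with its high ratios of Jun, Atf3 and Dusp1. The weight of single arrays in these correlations was not tested.

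Markers of other cells were read beside the DPN values of 4 h. The log2 ratio of the summed signal of DPN to its control was 0.005 for 6 hepatocyte markers, -0.13 for 9 Kupffer cell markers, -0.12 for 8 endothelial markers, -0.03 for 6 lymphocyte markers and -0.25 for 6 neutrophil markers. It was -0.45 for 6 stellate cell markers, -0.58 for 3 cholangiocyte markers, -0.48 for 2 red cell markers and 0.07 for 4 pancreas markers. Single markers moved more than these sums, with log2 ratios of -0.98 for Apob and 0.58 for Tat among the hepatocyte markers, -1.14 for S100a8 and -1.62 for S100a9 among the neutrophil markers, and -2.04 for Ctrb1 and -0.64 for Prss2 among the pancreas markers. S100a8 was above the floor on 11 and S100a9 on 32 of 52 arrays. At 4 h the summed stellate cell markers ran from 1023 to 1189 in the controls and from 865 to 1156 in the genotoxic arrays. The cholangiocyte markers Krt19, Krt7 and Sox9 were above the floor on 20, 4 and 17 of 52 arrays, and the stellate cell marker Lrat on 4. The part of these shifts in the values of the immediate early genes was not tested.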

How the data were processed

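RNA from 5 mice was pooled for each of 52 Affymetrix arrays of mouse liver. The authors deposited a linear intensity for each of 22690 probe sets, with 0 missing values and no detection calls. Software and scaling: not given in the sources used here. No per-sample column was set aside (0 not used). The quantitative PCR and rat experiments were not analysed here. Promoters were RefSeq sequences on GRCm38.p6.

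After removal of 64 Affymetrix control probe sets, arrays were scaled to a common median, and anything under the 30th percentile (log2 5.02) was set to that floor. Probe sets above it in at least 4 arrays were kept (18349). Groups came from the submitters' labels. Class changes at each time were fitted with limma (version 3.58.1, R 4.3.3, mean-variance trend) with the control set as a block, and p-values were adjusted by Benjamini-Hochberg over all probe sets kept. A count over the array at an unadjusted p is given for the genotoxic class alone. The paper gives no test for these arrays. Fits were tested on simulated data. A single chemical was set beside the 6 differences between the 4 saline controls of its time.

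All 10 genes were named with every probe set. Of the other lists, genes called in a comparison and otherwise the 4 with the largest change at 4 h were named, and for each of the 10 the 2 most correlated genes above the floor in at least 26 arrays. A gene was represented by its probe set with the highest mean signal. The genes and lists were chosen with earlier results of these data known. Alternatives covered scaling, floor, filter, block, model and leaving out each chemical or control. Leaving saline controls out of the differences, the counts at 20 h without EtOH and PB and at 4 h without DPN or Atf3, and the other probe sets of DPN were added after seeing the data. Figures were drawn with matplotlib 3.10.9.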

Additional observations from a re-analysis of the deposited data

Results flagged for a closer look

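Within the 4 saline controls of a time, 48 groups of 4 values were examined and 7 held a value whose gap to the nearest other, divided by the range, was above Dixon's critical value at the 95% level. For normally spread values without a floor, chance gives about 1 in 20 groups. Where 3 of the 4 values are at the floor and the other is above it, the quotient is 1 by construction, so that rate does not hold here. At 14 days the control of EtOH and PB was the highest for the dimmer probe set of Jun (a quotient of 1, with 6.50 against 3 values at the floor), for Junb (0.884, 8.19 against 7.00 to 7.14) and for the dimmer probe set of Klf6 (0.956, 5.48 against 5.02 to 5.04). The same control was the highest for Fos at 20 h (0.955, 5.82 against 5.02 to 5.06) and for Atf3 at 28 days (1, 5.27 against the floor). Its label at 20 h is in doubt. The DPN set control was the highest for the dimmer probe set of Klf6 at 28 days (0.975, 5.17 against 5.02 to 5.03) and the DMN set control for Atf3 at 14 days (1, 5.18 against the floor). That DMN set array had the highest median before scaling. All but the Junb value compare 1 dim array with arrays at or next to the floor.

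Jun at 4 h was higher than its control in all 6 genotoxic chemicals and lower in EtOH and PB, with a fitted difference of 1.10 that limma did not call (adjusted p = 1). On the dimmer probe set the difference was 0.18 and EtOH and PB were above their control. Ier2 at 4 h was higher in all 3 alkylating agents and lower in all 3 aromatic mutagens, with a difference of 1.02 (limma adjusted p = 0.373).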

How the results depend on the processing

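In the 18 class comparisons 331 of 341 alternatives called 0 of the 12 probe sets and 10 called 1. Ier2 was called between alkylating and aromatic chemicals at 4 h with no control-set block (1 call). Atf3 was called in the non-genotoxic and in the genotoxic minus non-genotoxic comparison at 28 days with no filter on low values and with values as deposited (1 call each). Leaving out 1 chemical gave 0 to 1 calls there, 1 without EtOH or without PB. The fit of the vehicle controls gave 0 to 1, with 1 call, the dimmer probe set of Klf6, without the control of EtOH and PB. Leaving out any other array set gave 0 calls.

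Signs of fitted changes near 0 turned. For the genotoxic class at 4 h, Junb ran from -0.34 to 0.013 with a chemical left out (0.013 without DPN) and was 0.32 with no control-set block. Klf6 ran from -0.18 (without DPN) to 0.27 and its dimmer probe set from -0.0025 (without DPN) to 0.48. Ier3 ran from -0.029 (without ENU) to 0.17 and was -0.0058 without AAT. For 4 h minus later times, Junb ran from -0.35 to 0.027 (without DPN) and was 0.34 with no control-set block. Klf6 ran from -0.21 (without DPN) to 0.24 and its dimmer probe set from -0.15 (without DPN) to 0.28. Ier3 ran from -0.091 (without ENU) to 0.13 and was -0.044 without AAT, -0.0094 with the floor at the 40th percentile and -0.032 as deposited. Atf3 at 28 days, genotoxic minus non-genotoxic, was -0.040 with no control-set block. For Jun, Fos, Dusp1 and Atf3 at 4 h no alternative turned the sign.

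The 15 ratios above the saline differences at 4 h became 9 with DPN not counted, 10 with Atf3 not counted, 5 as deposited and 8 at 2-fold or more, and 16 to 21 with a saline control left out. The 6 at 20 h became 2 at 2-fold, 11 at 1.5-fold, 11 with the other probe set of Jun and Klf6, and 7 to 12 with a saline control left out, 11 without that of the DMN set and 12 without that of EtOH and PB. The 3 at 14 days became 0 as deposited, 11 at 1.5-fold and 4 to 12 with a saline control left out (7 without that of DMN or ENU, 12 without that of EtOH and PB). The 7 at 28 days became 4 against the mean of the 4 saline controls, 2 at 2-fold and 10 to 17 with a saline control left out (11 without that of DMN, 13 without that of DPN and 17 without that of EtOH and PB). Fewer controls give fewer differences to exceed, by construction; for the other settings the cause was not tested. Each treated array was tied to its own control through the control set as a block, and the fits without that block are given above; the labels carry no replicate numbers to pair by. Signals at the floor limit Atf3, Fos and the dimmer probe sets of Jun and Klf6, which have bounds there. Myc was at the floor on 7 and Ier3 on 2 of the 39 later arrays, which limits their low ratios too.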
